A study of Rattus norvegicus with 12 samples.

Results

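Mitochondrial ribosomal protein genes, the nuclear genes for the protein subunits of the ribosome inside mitochondria, were followed in the hippocampus of male rats after chronic intermittent hypoxia (CIH). They were taken as every gene whose symbol reads Mrpl or Mrps, a number and at most 1 further letter, with at least 60 estimated reads summed over the 6 RNA libraries. That gave 75 of 26949 genes, with no symbol lost to the read minimum, and all 75 passed the low-count filter of the test. The groups were 3 libraries of rats exposed to CIH for 4 weeks, and 3 libraries of rats kept in normoxia for the same 4 weeks (control). Strain, age and the hypoxia cycle are not given in the labels, and the labels do not say that each library is a different animal. P-values therefore measure only the spread between these libraries, which may be technical. CIH, repeated cycles of low oxygen, is used as a model of sleep apnoea.

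The mitochondrial ribosome translates the few proteins that the mitochondrial genome encodes, all of them subunits of the respiratory chain and ATP synthase. Its ribosomal RNAs come from mitochondrial DNA, while every protein subunit is made in the cytosol and imported. Some subunits descend from bacterial ribosomal proteins and others exist only in mitochondria. Neurons depend on this chain for the ATP that ion pumps and synapses use.

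Of the 75 members, 48 belong to the large subunit, 27 of them with a bacterial homologue and 21 specific to mitochondria. A further 26 belong to the small subunit, 16 with a bacterial homologue and 10 specific to mitochondria. The names do not always give the place: Mrps30 and Mrps18a are named for the small subunit and sit in the large one. Mrps36, listed in RefSeq as Kgd4, is now known as a component of the 2-oxoglutarate dehydrogenase complex and was kept because its symbol matches. The genes mrpl9, mrpl11 and mrpl24 are written in lower case in the deposited table and so fell outside the rule. Their log2 fold changes were -0.13 (SE 0.14), 0.09 (SE 0.13) and 0.03 (SE 0.16).

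RNA totals ran from 17170943 estimated counts in CIH replicate 1, the lowest, to 21941173 in CIH replicate 2. No pair of libraries agreed within counting noise (lowest chi-square over its degrees of freedom, 6.97, for CIH replicate 3 with control replicate 1). That pair, which crosses the groups, also had the highest correlation of log2 CPM, 0.985. CIH replicate 1 stood apart from the other libraries, with correlations of log2 CPM to them between 0.956 and 0.968, against 0.966 to 0.985 among the other 5. Markers of dentate granule cells (Prox1, Dsp and C1ql2) summed to 37.2 CPM (counts scaled to the adjusted library total) in CIH replicate 1. They summed to 175.9 to 390.6 CPM in the other CIH libraries, and 131.9 to 464.2 CPM in control libraries. Endothelial markers (Flt1, Pecam1 and Cldn5) summed to 138.9 to 177.5 CPM in CIH, highest in replicate 1, against 122.1 to 129.0 CPM in control. The choroid plexus markers Ttr, Kl and Folr1 summed to 0.8 to 17.1 CPM in CIH and 5.1 to 16.8 CPM in control. In bulk tissue, fewer cells of a type and less RNA per cell cannot be told apart.

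RefSeq promoter windows on the rat build GRCr8, from 250 bases before to 50 bases after a gene's start, were matched by gene ID for 61 members, which had 63 windows. The windows below are shown because they hold letters of factors that regulate mitochondrial genes, for a family of paralogues whose members differed in sign and for a pair of members that share a start region. Capitals mark 4 motifs on either strand: the ETS motif CCGGAAG (bound by GABP), the NRF1 motif (GCGC, any base, then TGCGC), the YY1 motif AAGATGGC and the HIF motif ACGTGC. Motifs were counted independently, so bases can belong to more than 1.

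Mrps18a (large subunit, GRCr8 chr9:22367331-22367630, minus strand): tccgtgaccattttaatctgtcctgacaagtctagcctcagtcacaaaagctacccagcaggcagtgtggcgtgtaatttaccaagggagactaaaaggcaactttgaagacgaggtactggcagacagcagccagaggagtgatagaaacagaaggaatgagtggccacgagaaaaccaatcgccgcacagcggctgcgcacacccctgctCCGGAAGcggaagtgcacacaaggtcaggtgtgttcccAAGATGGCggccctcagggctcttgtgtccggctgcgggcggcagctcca
Mrps18b (small subunit, GRCr8 chr20:2842756-2843055, plus strand): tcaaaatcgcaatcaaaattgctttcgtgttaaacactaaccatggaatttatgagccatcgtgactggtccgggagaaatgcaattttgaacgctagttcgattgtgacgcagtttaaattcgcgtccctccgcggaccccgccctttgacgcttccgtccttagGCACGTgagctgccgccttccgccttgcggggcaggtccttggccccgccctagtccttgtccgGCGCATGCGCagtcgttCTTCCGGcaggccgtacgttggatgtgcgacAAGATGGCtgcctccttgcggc
Mrps18c (small subunit, GRCr8 chr14:9122857-9123156, minus strand): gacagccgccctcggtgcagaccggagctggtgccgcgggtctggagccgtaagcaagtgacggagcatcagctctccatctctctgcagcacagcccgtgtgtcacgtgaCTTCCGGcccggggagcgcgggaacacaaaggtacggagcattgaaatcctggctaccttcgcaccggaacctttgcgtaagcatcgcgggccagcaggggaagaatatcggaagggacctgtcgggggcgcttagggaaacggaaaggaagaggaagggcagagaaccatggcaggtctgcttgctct
Mrpl46 (large subunit, with Mrps11 on the other strand, GRCr8 chr1:142116981-142117280, minus strand): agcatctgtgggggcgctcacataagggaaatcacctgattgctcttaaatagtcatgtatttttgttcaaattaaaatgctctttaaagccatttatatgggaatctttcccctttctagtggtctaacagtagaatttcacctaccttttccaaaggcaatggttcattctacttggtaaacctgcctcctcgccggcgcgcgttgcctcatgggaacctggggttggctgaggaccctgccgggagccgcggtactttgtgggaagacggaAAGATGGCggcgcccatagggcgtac

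All 3 Mrps18 windows hold an ETS motif. That of Mrps18b also holds an NRF1, a YY1 and a HIF motif, and that of Mrps18a a YY1 motif. Over all member windows, ETS letters were found in 21 of 63 (33.3%), against 8.75% of 33469 windows of all genes. YY1 letters were in 15 (23.8%), against 3.17% of all windows, and NRF1 letters in 9 (14.3%), against 4.25%. HIF letters were in 4 member windows (6.35%), those of Mrpl49, Mrpl50, Mrpl54 and Mrps18b, against 5.73% of all windows. The CCAAT box CCAAT was in 42.9% of member windows and 37.5% of all windows, and the TATA box TATAAA in 12.7% and 14.2%. These matches are descriptions of letters and not of binding. Median GC was 55.7% in member windows and 51.7% in all windows, and the latter include genes that were not tested. The shares were not adjusted for either. The median log2 fold change, CIH over control, was -0.06 for the 21 members with ETS letters and -0.10 for the 40 without. With and without the letters it was -0.03 and -0.10 for NRF1, -0.06 and -0.09 for YY1, and 0.04 and -0.09 for HIF. For the CCAAT box it was -0.06 and -0.09, and for the TATA box -0.14 and -0.06.

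Another gene started within 1000 bases upstream on the opposite strand for 18 of the 61 members (29.5%), against 11.4% of all 27457 genes with a window. Mrps11 and Mrpl46 are such a pair within the list, and the window printed for Mrpl46 overlaps that of Mrps11. The log2 fold change was -0.22 (SE 0.12) for Mrps11 and -0.06 (SE 0.15) for Mrpl46. Mrps18b starts opposite Ppp1r10, a regulator of protein phosphatase, at 0.09 (SE 0.17) for Mrps18b and -0.12 (SE 0.11) for Ppp1r10. Mrps18c starts opposite Helq, a DNA helicase, at -0.29 (SE 0.19) for Mrps18c and -0.15 (SE 0.14) for Helq. Mrpl49 starts opposite the cytosolic ribosomal gene Fau, at -0.01 (SE 0.16) for Mrpl49 and -0.01 (SE 0.13) for Fau.

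The levels of the members were compared per length, on the authors' TPM (abundance scaled to transcript length and library total). Mean TPM over the 6 libraries ran from 2.44 for Mrps28 to 106.8 for Mrps21, a 43.9-fold range with a median of 32.3. Of the 75 members, 62 lay between 10 and 60 TPM, 7 above and 6 below. The median member stood at 33.1 TPM in the large subunit and 32.9 TPM in the small subunit. Most subunit mRNAs of the particle lay within this band, with a few estimates far below the rest. Of the lowest 3, Mrpl30 and Mrpl1 had estimated counts that were not whole in any library, and the gene of Mrps28 overlaps other genes. Their levels are therefore uncertain as measures of abundance. Counts of Mrpl16, Mrpl48 and Mrpl53, within the band, were also not whole in any library.

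Mrps21, a small basic protein of the small subunit with a bacterial homologue, had the highest level, 103.0 ± 20.0 TPM in CIH and 110.7 ± 9.53 TPM in control (SD, n = 3 each). Next came Mrpl17, a bacterial-type protein of the large subunit, at 76.8 ± 12.7 TPM in CIH and 78.6 ± 5.92 TPM in control. Mrps18a, the paralogue placed in the large subunit, followed at 79.9 ± 4.46 TPM in CIH and 73.0 ± 8.35 TPM in control. In all 3 genes the groups differed by less than 1 SD of the more variable group.

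Mrpl41, whose human form binds BCL2, stood at 67.2 ± 7.44 TPM in CIH and 81.4 ± 6.04 TPM in control. Mrps34, a mitochondria-specific protein of the small subunit, stood at 68.7 ± 4.57 TPM in CIH and 72.4 ± 10.8 TPM in control. At the lower end, Mrps28, a relative of bacterial S1, stood at 2.11 ± 0.243 TPM in CIH and 2.76 ± 1.26 TPM in control. Mrpl30 stood at 2.77 ± 0.741 TPM in CIH and 3.25 ± 1.50 TPM in control, and Mrpl1 at 6.01 ± 1.87 TPM in CIH and 3.61 ± 0.799 TPM in control. Mrps28 rested on 66 reads over 6 libraries, just above the minimum of 60, and the next lowest member had 266, so its values were the least precise.

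**Figure D1:**
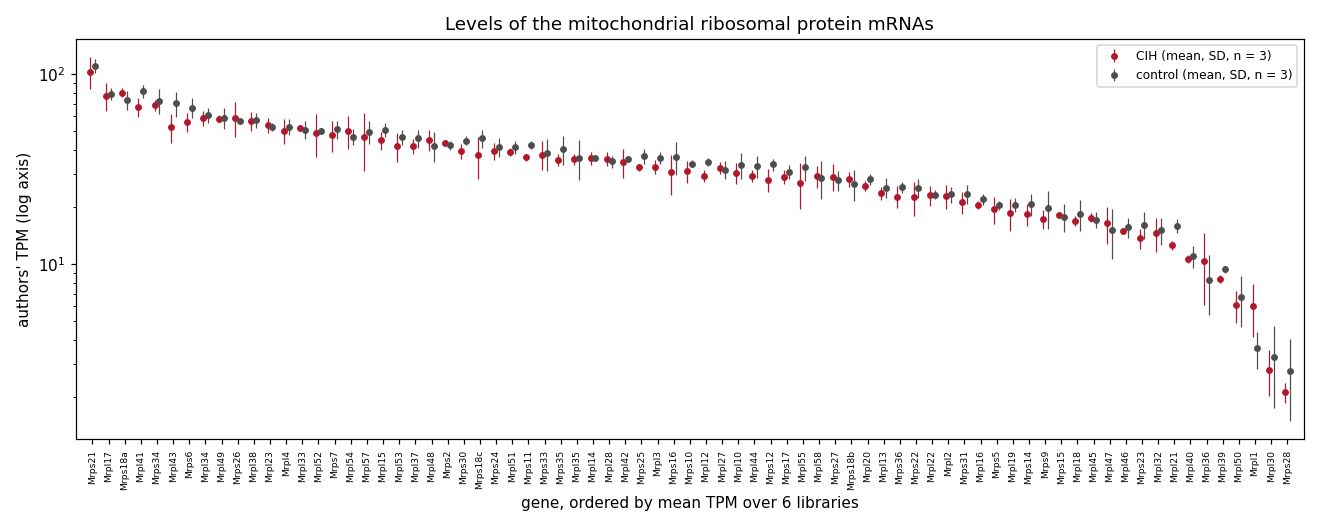
Mean TPM of each of the 75 members in CIH and in control (points, with SD, n = 3 each) on a log axis, ordered by mean over 6 libraries. Levels run from Mrps21 at 106.8 TPM to Mrps28 at 2.44 TPM, and the group means differ little beside this range, Mrpl1 being the widest apart in proportion at 6.01 TPM in CIH and 3.61 TPM in control.

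Summed over the large subunit, TPM were 1487, 1716 and 1678 in CIH replicates 1 to 3, against 1699, 1646 and 1781 in control replicates 1 to 3. Summed over the small subunit, TPM were 845.4, 913.3 and 953.8 in CIH, against 956.5, 925.8 and 1055 in control. CIH replicate 1 was lowest and control replicate 3 highest in both sums, and the other 4 libraries overlapped. The groups averaged 1627 ± 122 TPM in CIH and 1709 ± 68.2 TPM in control for the large subunit. For the small subunit they averaged 904.2 ± 54.8 TPM in CIH and 979.2 ± 67.7 TPM in control (SD, n = 3 each).

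The comparison of CIH with control asked whether the mRNAs of the mitochondrial ribosome differ after 4 weeks of intermittent hypoxia. None of the 75 members passed the edgeR quasi-likelihood test after Benjamini-Hochberg adjustment over all 17935 genes (adjusted p = 1.00 for each), where 0 of all genes tested (0%) passed. At an unadjusted p under 0.05 there was 1 member (1.33%), Mrpl1, against 319 of all genes tested (1.78%), and 0 members were lower in CIH at that p, against 0.864% of all genes tested. DESeq2 called 0 members and 9 of 17921 genes (0.0502%). The log2 fold changes were small: the median was -0.09, the quartiles -0.18 and -0.03, and 52 of the 75 lay within 1 SE of 0, while 4 (Mrpl1, Mrpl12, Mrpl21 and Mrpl43) lay more than 2 SE from 0.

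The sign was uneven. In CIH, 58 of the 75 members were lower and 17 higher, a share of 77.3% lower against 49.4% of all genes tested. The median of all genes tested was 0.00. In the small subunit 22 of 26 members were lower, with a median of -0.13. In the large subunit 35 of 48 were lower, with a median of -0.07. By class, 14 of 16 bacterial-type and 8 of 10 mitochondria-specific small subunit genes were lower. So were 19 of 27 bacterial-type and 16 of 21 mitochondria-specific large subunit genes. No test of the list was made, since the members were chosen with results of these data known, and members share their libraries.

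**Figure D2:**
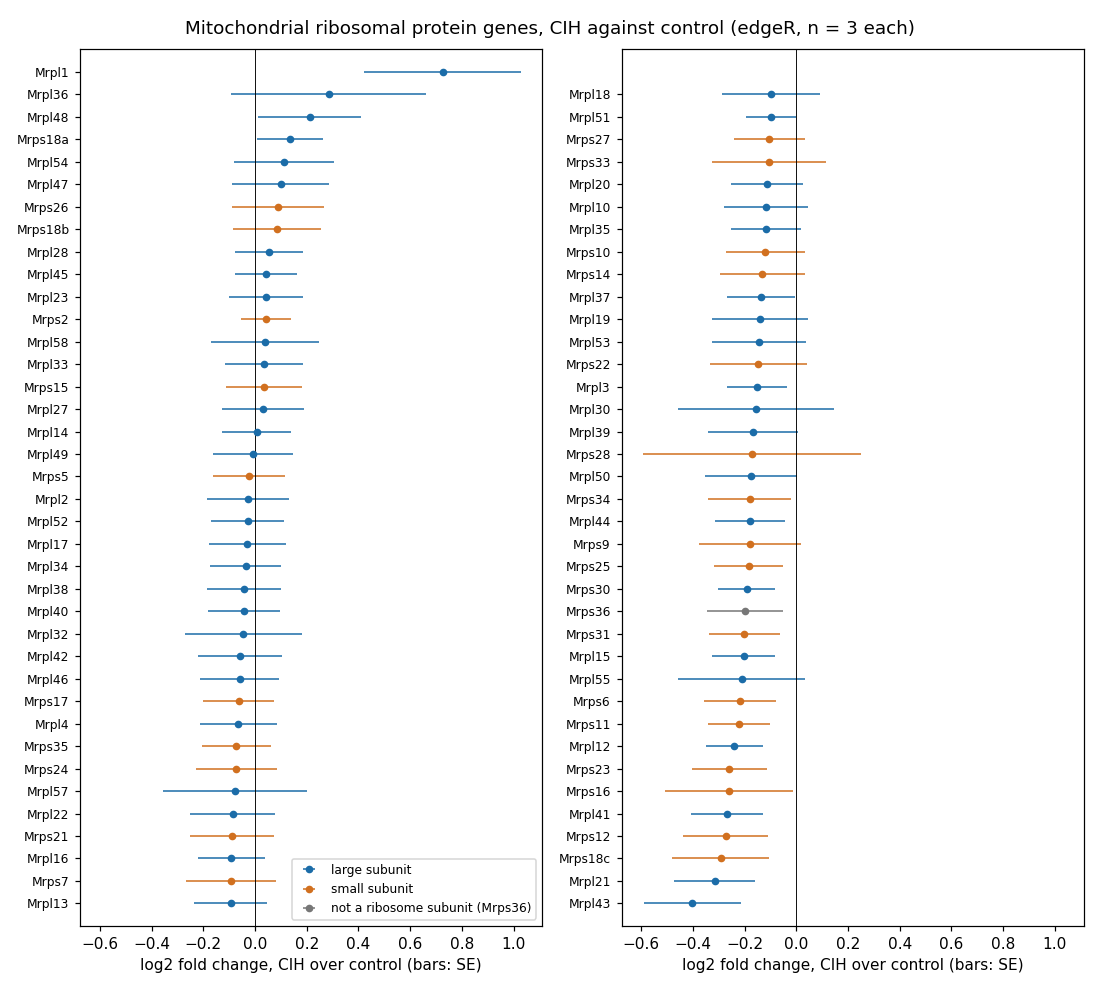
Log2 fold change, CIH over control, with SE for each of the 75 members (edgeR, n = 3 each), ordered from highest to lowest and coloured by subunit. Of the members, 58 lie below 0 and 17 above, and for 52 the SE bar reaches 0.

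CIH replicate 1 and control replicate 3 stood at opposite ends in these genes. Each member's log2 CPM was set against its mean over the 6 libraries and averaged over the members: the values were -0.14, 0.02 and 0.00 in CIH replicates 1 to 3, against 0.02, 0.00 and 0.11 in control replicates 1 to 3. CIH replicate 1 was low, control replicate 3 was high, and the other 4 libraries lay close to each other. CIH replicate 1 was the lowest library for 34 members (45.3%), against 25.7% of all genes tested. Control replicate 3 was the highest library for 34 members (45.3%), against 15.9% of all genes tested. Without CIH replicate 1, 45 members were lower and the median was -0.04. Without control replicate 3, 50 were lower and the median was -0.06. The excess of lower members was smaller without either library, and more members were lower than higher in both cases. Without both libraries, a pair chosen after seeing the data as the lowest CIH and the highest control library for these genes, 37 of 75 were lower and the median was 0.00, and that choice itself works against the excess. The other settings left 36 members lower throughout. The dentate, endothelial and choroid plexus markers given above were also at their extremes in CIH replicate 1, which had the lowest RNA total. Cortex markers (Lamp5 and Cux2) summed to 221.7 CPM in CIH replicate 1, against 61.1 to 113.0 CPM in the other 5 libraries. That sum rested on Cux2, at 203.1 CPM in CIH replicate 1. Lamp5 stood at 18.6 CPM in that library, within its range of 11.4 to 30.7 CPM in the other 5. Excitatory neuron markers (Neurod6 and Slc17a7) summed to 754.4 CPM in CIH replicate 1, against 1072 to 1625 CPM in the other 5. That library was the lowest for 1 of these 2 genes. In control replicate 3 the CA1 pyramidal markers Wfs1 and Fibcd1 were lowest, at 326.1 CPM against 509.3 to 953.7 CPM in the other 5, and the inhibitory neuron markers Gad1 and Gad2 highest, at 341.6 CPM against 269.7 to 308.7 CPM. The part of these markers in the result was not tested.

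**Figure D3:**
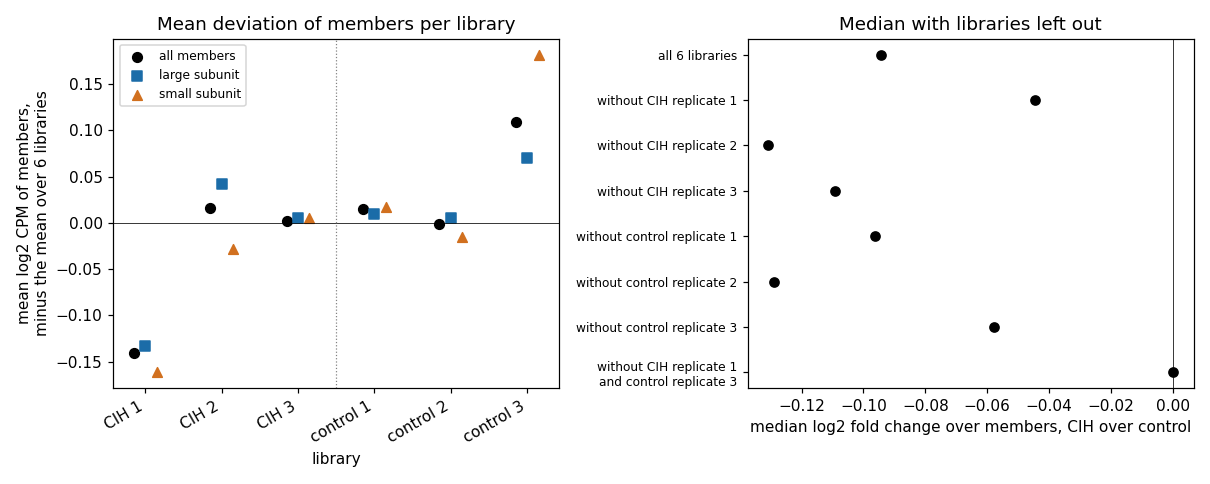
Left, mean over members of log2 CPM minus each gene's mean over 6 libraries, per library, for all 75 members, 48 large and 26 small subunit genes. Right, median log2 fold change over the 75 members with all libraries, without each in turn, and without CIH replicate 1 and control replicate 3 together. The median is -0.09 with all 6 libraries and 0.00 without both of these.

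The small subunit genes followed the same libraries, at -0.16, -0.03 and 0.01 in CIH replicates 1 to 3, against 0.02, -0.02 and 0.18 in control replicates 1 to 3. The large subunit genes stood at -0.13, 0.04 and 0.01 in CIH, against 0.01, 0.01 and 0.07 in control. Over the 6 libraries, the mean Pearson correlation of log2 CPM between pairs of members was 0.19, against 0.00 between all pairs of genes tested. It was 0.28 between small subunit genes, 0.15 between large subunit genes and 0.22 across subunits. With group means removed it was 0.14 over all members. These are descriptions over 6 libraries that differ in depth, and all members share those libraries. Scaling the libraries to each other brings the value over all pairs of genes near 0. Any list that shares a shift between libraries would exceed it.

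**Figure D4:**
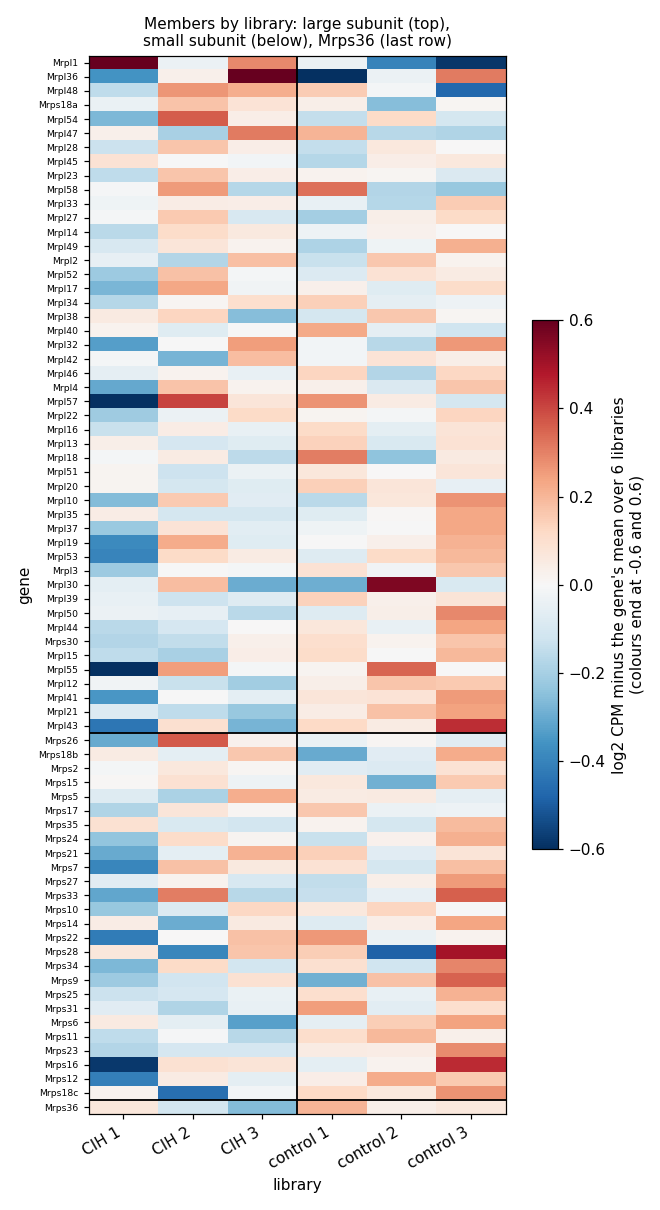
Log2 CPM of each member minus its mean over 6 libraries (colour, ending at -0.6 and 0.6), with the 48 large subunit genes at the top, the 26 small subunit genes below and Mrps36 last, and CIH libraries left of control libraries. CIH replicate 1 is the lowest library for 34 members and control replicate 3 the highest for 34.

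For 7 members no CIH library overlapped a control library, 9.33% of the members, against 5.7% of all genes tested. All 7 were lower in CIH, where 2.65% of all genes tested were lower without overlap. No member was higher without overlap (0 of 75), against 3.05% of all genes tested. They were Mrpl12, Mrpl21, Mrpl39, Mrpl41, Mrps11, Mrps18c and Mrps23, of which Mrpl39, Mrps11 and Mrps23 are named after their values were seen.

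Mrpl12, the stalk protein that recruits translation factors and that also binds the mitochondrial RNA polymerase, stood at 22.6, 20.9 and 19.9 CPM in CIH and 23.5, 25.7 and 25.6 CPM in control. Every CIH library lay below every control library. Its log2 fold change was -0.24 (SE 0.11, edgeR adjusted p = 1.00). Mrpl10, the stalk base that carries Mrpl12, stood at 20.9, 27.9 and 23.9 CPM in CIH and 22.4, 26.3 and 30.2 CPM in control. These groups overlapped, with a log2 fold change of -0.12 (SE 0.16).

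Mrpl21, a bacterial-type large subunit protein, had 5.27, 5.03 and 4.75 CPM in CIH and 5.76, 6.34 and 6.63 CPM in control, a log2 fold change of -0.32 (SE 0.16). Mrpl41 had 15.1, 19.3 and 18.5 CPM in CIH and 20.3, 20.4 and 23.0 CPM in control, a log2 fold change of -0.27 (SE 0.14). In Mrpl41 CIH replicate 1 was the lowest library of its group, while in Mrpl21 that library was the highest of its group. Mrpl39, a mitochondria-specific protein, had 3.36, 3.18 and 3.29 CPM in CIH and 3.83, 3.54 and 3.66 CPM in control, a narrow separation with a log2 fold change of -0.17 (SE 0.17). Mrpl43, also mitochondria-specific, had the lowest log2 fold change of the list, -0.40 (SE 0.19), with 10.7, 15.5 and 11.9 CPM in CIH and 15.7, 15.0 and 19.7 CPM in control. Its groups overlapped, and its gene overlaps that of the mitochondrial helicase Twnk, so its reads are uncertain.

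In the small subunit, Mrps11, a platform protein with a bacterial homologue, had 12.7, 14.1 and 12.6 CPM in CIH and 15.3, 16.2 and 14.5 CPM in control. Mrps23, specific to mitochondria, had 6.61, 6.97 and 6.98 CPM in CIH and 7.75, 7.73 and 9.13 CPM in control. In Mrps23 the CIH libraries lay close together below the control libraries. In Mrps11 each group was spread alike, and CIH replicate 2 lay just below control replicate 3. The log2 fold changes were -0.22 (SE 0.12) for Mrps11 and -0.26 (SE 0.15) for Mrps23.

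**Figure D5:**
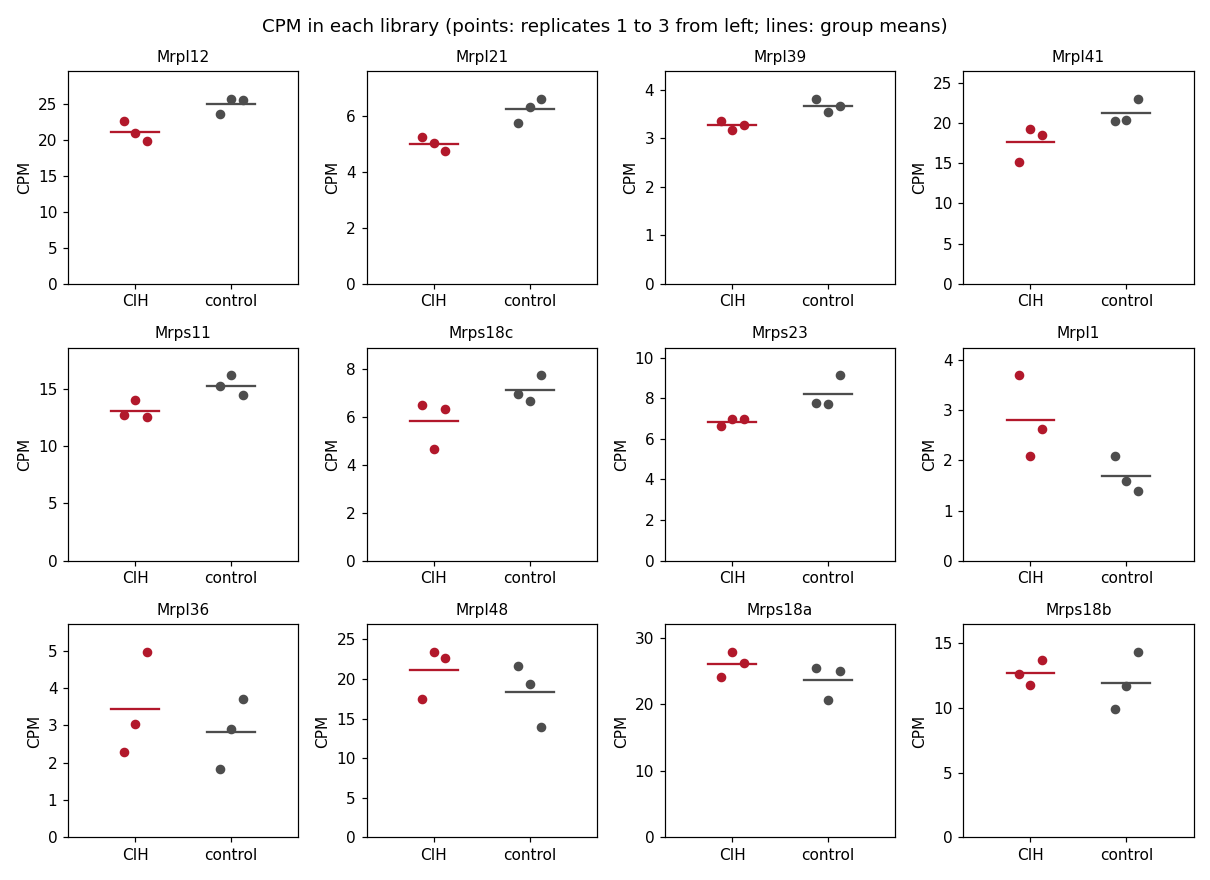
CPM in each library (points, replicates 1 to 3 from left) with group means (lines) for the 7 members whose groups did not overlap, and for Mrpl1, Mrpl36, Mrpl48, Mrps18a and Mrps18b. The first 7 panels show every CIH library below every control library; in the other 5 the groups overlap or touch.

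Mrpl1, which forms the mobile stalk beside the exit site for spent tRNA, had the highest log2 fold change of the list, 0.73 (SE 0.30). Its values were 3.70, 2.09 and 2.63 CPM in CIH and 2.09, 1.60 and 1.39 CPM in control, so the lowest CIH and the highest control library met at 2.09 CPM. The unadjusted edgeR p was 0.0485 and the adjusted p 1.00. Its estimated counts were not whole in any library, and how reads were shared with other genes was not tested. Mrps18a had 24.0, 27.8 and 26.2 CPM in CIH and 25.4, 20.7 and 24.9 CPM in control, a log2 fold change of 0.14 (SE 0.13). Mrpl48, of the central protuberance, had 17.5, 23.4 and 22.7 CPM in CIH and 21.6, 19.3 and 14.0 CPM in control, a log2 fold change of 0.21 (SE 0.20). Mrpl36, a small zinc-binding protein, had 2.30, 3.03 and 4.96 CPM in CIH and 1.84, 2.89 and 3.71 CPM in control, at 0.29 (SE 0.38). Among these only Mrpl1 differed by more than 2 SE, and the gene of Mrpl48 overlaps Rab6a and that of Mrpl36 overlaps Ndufs6.

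The 3 Mrps18 paralogues did not share a sign. In the classes used here, Mrps18c counts as having a bacterial homologue, and Mrps18a and Mrps18b as specific to mitochondria. Mrps18b had 12.7, 11.8 and 13.7 CPM in CIH and 9.94, 11.7 and 14.3 CPM in control, a log2 fold change of 0.09 (SE 0.17). Mrps18c had 6.50, 4.65 and 6.32 CPM in CIH and 6.95, 6.68 and 7.74 CPM in control, a log2 fold change of -0.29 (SE 0.19). The difference between paralogues was not tested.

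Of the members in the fixed set chosen by function, Mrpl12, given above, lay more than 2 SE from 0. The others, given above or here, lay within 2 SE of 0, among them Mrps36, which is not a ribosome subunit. Mrps12, at the decoding centre, had 6.84, 9.44 and 8.75 CPM in CIH and 9.39, 10.7 and 10.2 CPM in control, a log2 fold change of -0.27 (SE 0.17). Mrps16 and Mrps22, whose loss causes failure of mitochondrial translation in human patients, stood at -0.26 (SE 0.25) and -0.15 (SE 0.19). In Mrps16 the extremes were 4.54 CPM in CIH replicate 1 and 9.36 CPM in control replicate 3, the same 2 libraries as at the ends for the whole list. Mrpl45, which ties the ribosome to the inner membrane, had 19.7, 18.4 and 18.3 CPM in CIH and 16.4, 19.0 and 19.3 CPM in control, a log2 fold change of 0.04 (SE 0.12). Mrpl44, with a ribonuclease III fold, stood at -0.18 (SE 0.13), Mrpl18, which binds ribosomal RNA, at -0.10 (SE 0.19), and the release factor relative Mrpl58 at 0.04 (SE 0.21). Mrps30 had 23.7, 24.2 and 27.4 CPM in CIH and 28.7, 27.2 and 30.1 CPM in control, a log2 fold change of -0.19 (SE 0.11), and CIH replicate 3 lay just above control replicate 2. Mrps36 stood at -0.20 (SE 0.15). None of these members passed under edgeR (every adjusted p = 1.00).

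Of the abundant members, Mrps21 had a log2 fold change of -0.09 (SE 0.16), Mrpl17 one of -0.03 (SE 0.15) and Mrps34 one of -0.18 (SE 0.16). The scarce Mrps28 stood at -0.17 (SE 0.42) and Mrpl30 at -0.15 (SE 0.30), the widest errors of the list beside Mrpl36 and Mrpl1. Over all 75 members the SE ran from 0.10 to 0.42 with a median of 0.15, so shifts of the size seen were not detectable gene by gene with these libraries.

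The rest of the mitochondrial translation pathway was taken from lists of genes by function. No gene of any of these lists passed under edgeR (every adjusted p = 1.00). The 5 subunits with other names (Dap3, Ptcd3, Chchd1, Aurkaip1 and Gadd45gip1) were all lower in CIH, with a median log2 fold change of -0.11, led by Gadd45gip1 at -0.22 (SE 0.18) and Ptcd3 at -0.11 (SE 0.11). Of 13 tested translation factors 9 were lower, with a median of -0.09; the elongation factor Gfm2, which recycles ribosomes, stood at -0.15 (SE 0.12) and the peptide deformylase Pdf at -0.17 (SE 0.17).

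Of 26 genes of ribosome assembly and ribosomal RNA modification 17 were lower, with a median of -0.05. Eral1, a GTPase that chaperones the small subunit RNA, had 19.8, 20.8 and 22.3 CPM in CIH and 17.3, 19.5 and 17.6 CPM in control, a log2 fold change of 0.21 (SE 0.12) without overlap. Rbfa, a small subunit assembly factor, stood at -0.20 (SE 0.12). Of 19 tested aminoacyl-tRNA synthetase genes of mitochondria 10 were lower, with a median of -0.03. The asparaginyl enzyme Nars2 had 61.3, 50.1 and 55.1 CPM in CIH and 48.0, 45.3 and 44.9 CPM in control, a log2 fold change of 0.27 (SE 0.11), while the arginyl enzyme Rars2 stood at -0.32 (SE 0.17). Both separated the groups, in opposite directions. Of the 19, 4 were lower without overlap (21.1%, against 2.65% of all genes tested) and 1 was higher without overlap (5.26%, against 3.05%).

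Of 18 genes of mitochondrial transcription and RNA processing 11 were lower, with a median of -0.02; the elongation factor Tefm stood at -0.22 (SE 0.22) and the transcription factor Tfb2m at 0.12 (SE 0.14). The 13 mitochondrially encoded mRNAs were not analysed here. All 10 markers of mitochondrial mass were lower, with a median of -0.11. Their mean deviations were -0.14 in CIH replicate 1 and 0.22 in control replicate 3, and between -0.04 and 0.01 in the other 4 libraries, with the same pair of libraries at the ends as for the ribosomal genes. Among them the chaperone Hspa9 had 126.5, 120.2 and 125.3 CPM in CIH and 135.7, 128.0 and 158.8 CPM in control, at -0.18 (SE 0.11) on the log2 scale. The import receptor Tomm20 stood at -0.16 (SE 0.13).

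The 78 tested genes of cytosolic ribosomal proteins, picked by symbol, had 38 lower and 40 higher, with a median of 0.01. Their mean deviation was 0.00 in CIH replicate 1 and -0.05 in control replicate 3. The difference between the mitochondrial and the cytosolic list was not tested.

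Regulators of mitochondrial biogenesis showed no common direction, with 5 of 9 higher and a median of 0.00. The coactivators Ppargc1a, Ppargc1b and Pprc1 stood at 0.06 (SE 0.20), -0.08 (SE 0.14) and 0.04 (SE 0.10). Nrf1, the factor of the NRF1 motif, stood at 0.12 (SE 0.12), and the GABP subunits Gabpa and Gabpb1 at 0.07 (SE 0.17) and 0.00 (SE 0.13). Yy1 stood at -0.05 (SE 0.15) and the nuclear receptor Esrra at -0.04 (SE 0.11). Myc, a growth regulator that also activates mitochondrial genes, had 5.66, 4.17 and 5.71 CPM in CIH and 6.96, 6.83 and 8.16 CPM in control, a log2 fold change of -0.50 (SE 0.19) without overlap. It did not pass the edgeR test (adjusted p = 1.00; unadjusted p = 0.0350).

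Reads of some members are uncertain. Estimated counts were not whole in at least 1 library for 13 members, and 19 members overlap another gene in RefSeq GRCr8. The sources used here do not say whether counting used strand.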

How the data were processed

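Per the labels' protocols, the authors extracted hippocampal RNA with TRIzol and sequenced it on BGI instruments. The build Rnor_6.0 and the tools HISAT2 2.2.0, RSEM 1.2.12 and Bowtie2 2.2.5 stand in the submitters' processing notes, without saying what each was used for. The deposited table gives, per the file headers, estimated counts, TPM and FPKM. Of the authors' estimated counts 16.0% were not whole, and all were rounded before the test. The authors' TPM served for levels and for an alternative test, and the FPKM made by the authors were not used. The 6 small RNA libraries were not used here.

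Libraries were grouped by title and tested over 17935 genes with edgeR 4.0.16 under R 4.3.3 (quasi-likelihood F test, TMM, filterByExpr). P-values were adjusted by Benjamini and Hochberg's method over all genes tested, and 0.05 was the threshold. Log2 fold changes are CIH over control, and each SE is the size of the fold change divided by the square root of its F value. CPM are counts scaled by TMM-adjusted totals, and log2 CPM used a prior count of 2. The fit was tested on simulated data. Alternatives were RLE factors, library totals only, no filter, DESeq2 1.42.0, limma 3.58.1 on log2 TPM (pseudocount 1 or 0.1), a replicate block, and each library left out in turn. Plots used matplotlib 3.10.9 (Python 3.11.15).

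The members and lists were chosen with earlier results of these data known. Named members were the 4 with the smallest p in each direction, the 5 highest and 3 lowest by TPM, and a fixed set of 15 by function; of each pathway list the 2 genes with the smallest p were named, and all regulators. Any other gene named, the promoter motifs and the cytosolic list were chosen after values were seen. Sequences are from RefSeq, build GRCr8; promoter windows of 14 members were not used.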

Additional observations from a re-analysis of the deposited data

How the results depend on the processing

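No member passed under any alternative run, and no run moved the median of all genes tested by over 0.1. That bound is no smaller than the member median of -0.09, so it cannot show that the background was steady at that size. The medians of all genes in single runs are not given here. Over all genes tested, edgeR called 0 (319 at an unadjusted p under 0.05), DESeq2 9, and limma on TPM 1 with either pseudocount. Leaving out 1 library gave 0 to 1. Libraries with the same replicate number did not deviate together (correlations of -0.222, -0.046 and -0.176), so the numbers were not taken as pairs. With the replicate block 0 members and 0 genes passed, 58 members were lower and the median was -0.10, so that it changed no call. Across RLE factors, library totals only, no filter, DESeq2 and limma, 58 to 59 members were lower, with medians of -0.10 to -0.08. Leaving out 1 library gave 45 to 62 lower members, medians of -0.13 to -0.04 and a difference of mean log2 CPM of -0.11 to -0.04, against -0.08 with all 6 libraries. Without both CIH replicate 1 and control replicate 3, a pair chosen after seeing the data as the lowest and highest for these genes, 37 were lower, the median was 0.00018 and the difference -0.0015. That choice works against the excess by construction. Over all settings but that one, 36 members were lower throughout and 4 higher throughout (Mrpl1, Mrpl48, Mrps18a and Mrps2).

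Log2 fold changes of some genes turned sign. Without both libraries they were 0.087 for Mrpl10, 0.130 for Mrpl17, -0.044 for Mrpl58, 0.104 for Mrps16, 0.037 for Mrps21, 0.053 for Mrps28, 0.012 for Mrps34, 0.054 for Esrra, -0.021 for Gabpb1, -0.165 for Ppargc1a and 0.0040 for Yy1. Leaving out 1 library gave ranges of -0.167 to 0.083 for Mrpl17, -0.230 to 0.048 for Mrpl18, -0.322 to 0.145 for Mrpl30, -0.081 to 0.536 for Mrpl36 and -0.026 to 0.087 for Mrpl45. They were -0.089 to 0.242 for Mrpl58, -0.031 to 0.234 for Mrps18b, -0.234 to 0.023 for Mrps21, -0.430 to 0.119 for Mrps28 and -0.075 to 0.174 for mrpl24. For regulators they were -0.123 to 0.029 for Esrra, -0.071 to 0.203 for Gabpa, -0.080 to 0.076 for Gabpb1, -0.169 to 0.210 for Ppargc1a, -0.193 to 0.017 for Ppargc1b and -0.170 to 0.062 for Yy1. Gabpb1 also stood at -0.0022 with RLE factors, -0.0020 with DESeq2, -0.0075 with library totals only, and -0.049 and -0.052 with limma at pseudocounts of 1 and 0.1. Pprc1 stood at -0.00077 with limma at either pseudocount.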
